A study of Homo sapiens with 12 samples.

Results

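The genes described here encode proteins that build ribosomes: RNA polymerase I and its factors, and the proteins that process, modify and assemble ribosomal RNA in the nucleolus. They form a list of 40 human gene symbols, chosen by function with earlier results of these data known. Counts set beside shares of all tested genes are therefore descriptions. Each symbol matched 1 Ensembl identifier among the 63677 in the deposited table. Of these, 39 had reads and passed the filter on low values. The exception was BOP1, which works with PES1 and WDR12 in large subunit assembly; it was listed at 0 in all 12 libraries and is not analysed further. The annotation release used for counting is not stated, and whether BOP1 reads were assigned to another identifier was not tested, so the 0 does not show that BOP1 is not expressed.

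Ribosomes are made in the nucleolus, where RNA polymerase I transcribes the precursor of 3 of the ribosomal RNAs. Small nucleolar ribonucleoproteins (snoRNPs) guide chemical changes on that precursor, and large sets of assembly factors fold it, trim it and join it to ribosomal proteins. Many genes of this pathway are known targets of the transcription factor MYC, and growing tumour cells of the colon make many ribosomes.

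The libraries came from HCT116, a human colorectal cancer cell line, in which doxycycline switched on 1 of 4 constructs. The 3 CR3 libraries carried a peptide that the series title describes as perturbing condensates, the 3 reverse and 3 scramble libraries carried variants of it, and the 3 mCherry libraries carried a fluorescent protein as control. By the labels, cells of all 4 groups received doxycycline at 1 ug/ul, a dose and unit that could not be checked here, with a lead of 48 before RNA extraction whose unit the labels do not give, so the effect of the drug itself cannot be read from any comparison. Polyadenylated RNA was sequenced from cells described as clones. How many clones stand behind a group, and whether its libraries came from separate cultures, is not stated in the labels, so p-values measure only the spread between these libraries, and a clone and its construct cannot be told apart.

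Library totals ran between 17418173 and 23548480 reads, and 15483 genes were tested. Of all tested genes, 2246 were lower and 2172 higher in CR3 than in mCherry libraries; with libraries scaled to their total instead, the split was 1269 lower and 3578 higher. Against scramble the split was 2887 lower and 2960 higher, or 1803 and 4499 by library total, and against reverse it was 2581 and 2618, or 1545 and 4076. All 9 colorectal epithelial markers had reads in each group, with summed levels between 47930.0 and 55720.0 normalized reads in CR3, 58320.0 and 62860.0 in reverse, 61020.0 and 64230.0 in scramble, and 58840.0 and 66630.0 in mCherry libraries. Of the 8 tested, EPCAM, KRT8, KRT18, KRT19 and CLDN4 were lower in CR3 in all 3 comparisons. Markers of embryonic kidney and neuron-like cells moved the other way. Their 14 matched genes summed to between 3018 and 3271 normalized reads in CR3, against 428 and 459 in reverse, 417 and 445 in scramble, and 450.2 and 505 in mCherry libraries. Of the 11 tested, 9 were higher in CR3 in all 3 comparisons, where 10.9% of all tested genes were. None of these 14 was at 0 in CR3 libraries, while NEFM, STMN2, CRMP1 and LUZP4 were at 0 in reverse, EYA1, STMN2 and CRMP1 in scramble, and EYA1, STMN2 and LUZP4 in mCherry libraries. Blood markers summed to between 1291 and 1418 in CR3 and to at most 14.4 in the other libraries, with LAPTM5 higher in CR3 and PTPRC, the pan-leukocyte marker, at 0 in all groups. A marker near 0 in the other groups could pass the filter of 10 reads in 3 libraries through CR3 alone. Its call as higher was then fixed by the filter, so such calls add no support beyond the levels. The 6 fibroblast markers summed to between 876 and 1079 in CR3, 667 and 841 in reverse, 701 and 755 in scramble, and 668 and 920.2 in mCherry libraries. What part these shifts have in the results for the ribosome biogenesis genes was not tested.

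RNA of the ribosome biogenesis genes was less abundant in CR3 libraries. Of the 39 genes, 34 were lower in CR3 than in reverse libraries, 37 were lower than in scramble and 25 were lower than in mCherry (limma, Benjamini-Hochberg adjusted p under 0.05). The share of all tested genes called lower was 16.7% against reverse, 18.6% against scramble and 14.5% against mCherry. None of the 39 was called higher, where 16.9%, 19.1% and 14.0% of all tested genes were higher against reverse, scramble and mCherry, and RRP12, NOP10, RRN3, UBTF and RRP1B lay nearest to 0 by the median of their 3 fold changes. The 25 genes lower than mCherry were also lower than reverse and scramble, where 11.2% of all tested genes were lower in all 3. They were NCL, NPM1, NOLC1, PA2G4, GNL3, POLR1E, TAF1D, FBL, NOP56, NOP58, DKC1, GAR1, NOP14, UTP4, WDR43, RRP9, NAT10, NOP2, NOP16, WDR12, PES1, NOC2L, NOC3L, DDX10 and DDX18. The 3 CR3 values lay below the 3 reverse values for 34 of the 39 genes, below the 3 scramble values for all 39 and below the 3 mCherry values for 28, where the shares of all tested genes were 22.0%, 24.4% and 18.8%. For 25 genes they lay below all 9 other values, against 13.4% of all tested genes. Since RNA came from bulk cells, fewer cells of a type and less RNA per cell cannot be told apart.

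Fold changes were small. The median log2 fold change of the 39 genes was -0.35 against reverse, a change of -21.6%, with single genes between -0.52 and -0.04. Against scramble the median was -0.43, a change of -25.6%, with genes between -0.59 and -0.10. Against mCherry it was -0.21, a change of -13.8%, with genes between -0.42 and 0.07. The medians over all tested genes were 0.01, 0.01 and 0.00 in the comparisons with reverse, scramble and mCherry. Scaling by library totals moved the median of all genes to 0.09, 0.10 and 0.09 in that order, and those of the 39 genes to -0.26, -0.34 and -0.13, so that the median against mCherry was over 1.5 times smaller than with the deposited scaling. Relative to the median of all genes, which moves with the scaling just as the 39 genes do, the medians of the 39 were -0.36, -0.44 and -0.22. With library totals 36 genes lay below 0 against reverse, 39 against scramble and 33 against mCherry, where 39, 39 and 38 did with the deposited scaling, and 30, 34 and 19 were called lower. All 3 comparisons share the CR3 libraries and are not independent of each other.

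**Figure D1:**
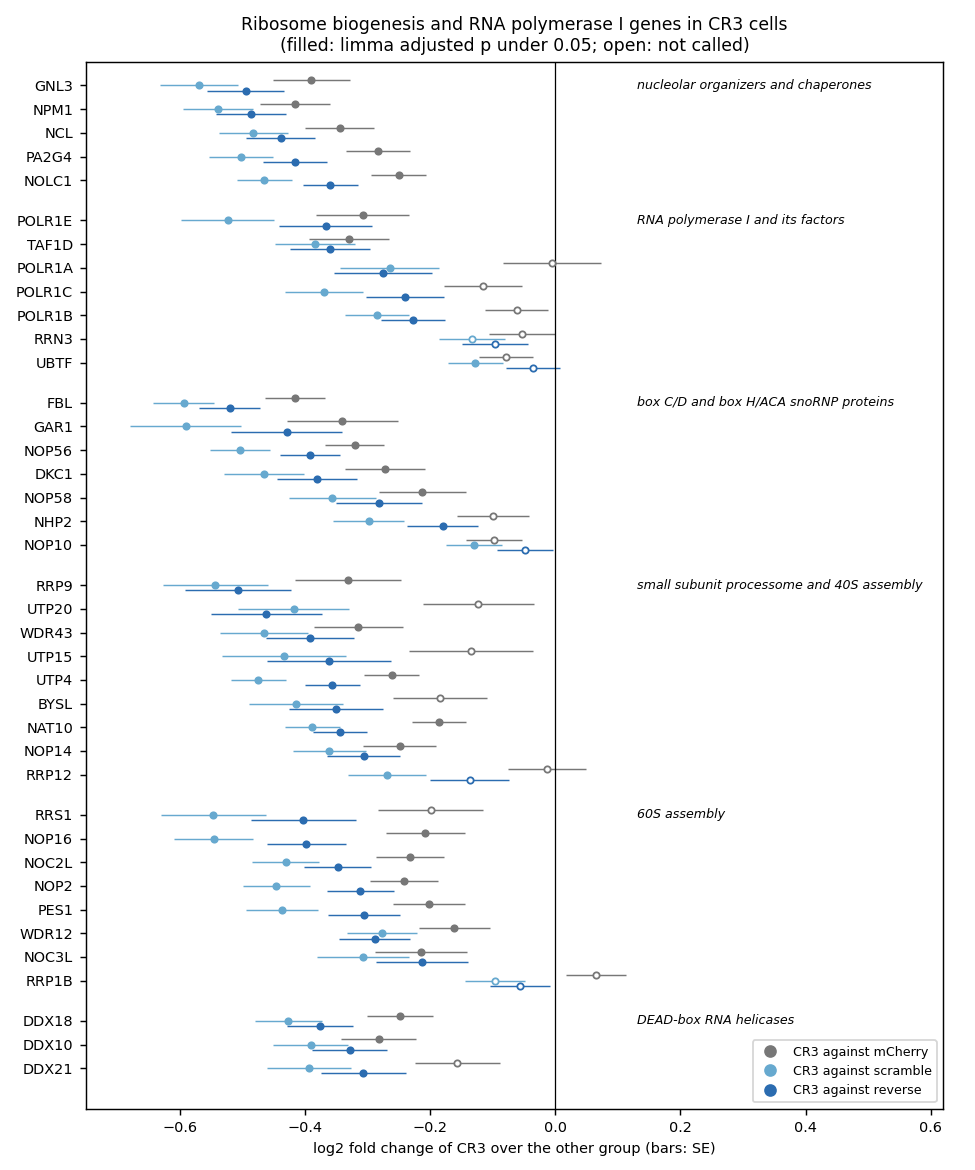
Log2 fold change of CR3 against reverse, scramble and mCherry for each of the 39 measured genes, grouped by role; bars are standard errors of the limma fit and filled points passed an adjusted p under 0.05. FBL, RRP9, GNL3 and NPM1 lie furthest below 0 by the median of their 3 values, while UBTF, NOP10 and RRP1B lie near it.

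As a share of all reads, the 39 genes took 0.585 ± 0.022% in CR3, 0.708 ± 0.024% in reverse, 0.741 ± 0.012% in scramble and 0.661 ± 0.03% in mCherry libraries (SD, n = 3 each). NCL and NPM1 alone supplied between 30.6 and 34.4% of those reads. Per kilobase of merged exon, the mean levels of the 39 genes over all libraries ran between 117 normalized reads for UTP20 and 4973 for NPM1, with a median of 469. The median over 15133 tested genes with a known length was 97.6 on the same scale.

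**Figure D2:**
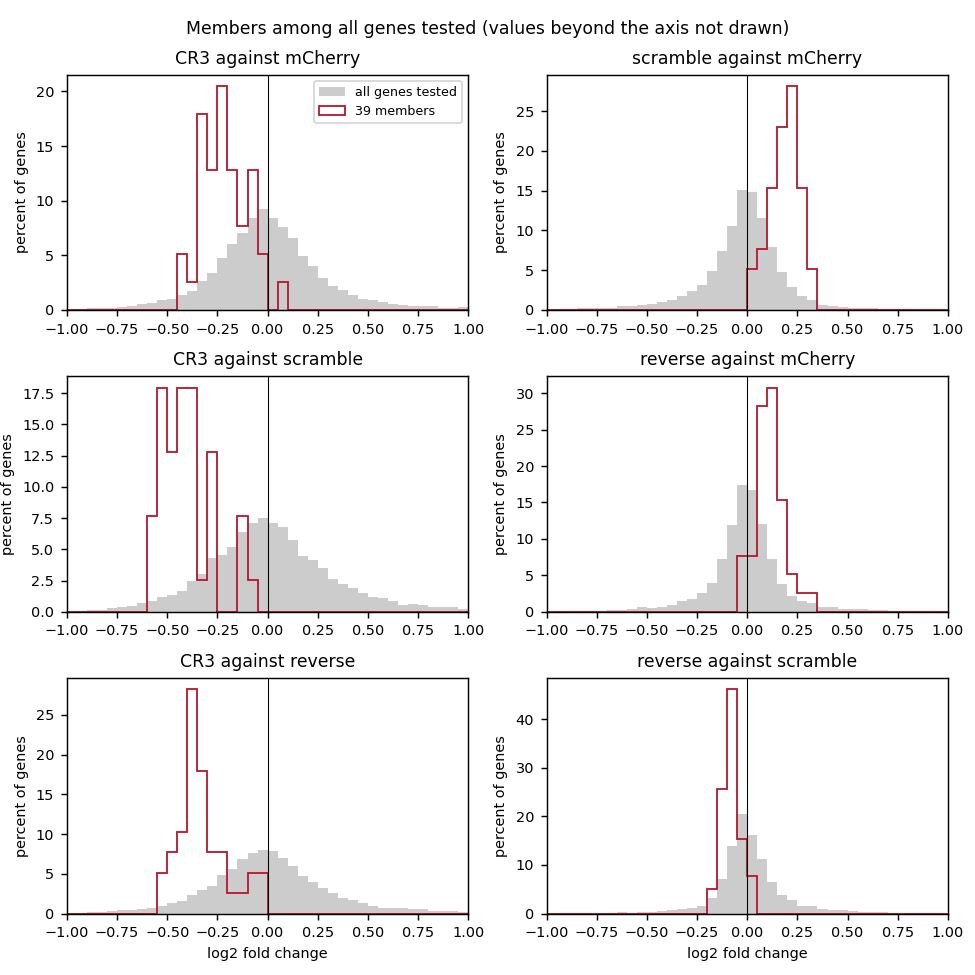
Percent of genes by log2 fold change, for all tested genes (grey) and the 39 ribosome biogenesis genes (red outline), in each of the 6 comparisons. In the comparisons with CR3 the medians of the 39 lie at -0.35 against reverse, -0.43 against scramble and -0.21 against mCherry, to the left of the medians of all genes near 0.

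The E-box CACGTG is the known binding sequence of MYC, whose RNA was lower in CR3. MYC averaged 1344 ± 35.2 normalized reads in CR3, 2233 ± 114 in reverse, 2160 ± 76.8 in scramble and 1900 ± 105 in mCherry libraries (SD, n = 3 each), with log2 fold changes of CR3 of -0.73 against reverse, -0.68 against scramble and -0.50 against mCherry (limma adjusted p = 1.87e-08, 3.54e-08 and 1.68e-06). RefSeq promoters on GRCh38.p14, covering 250 bases before to 50 bases after a transcription start, were at hand for 32 of the 39 genes. The letters CACGTG, a palindrome and so the same on both strands, were present in 15 of the 32 (46.9%). Over all promoters of the same length the share was 7.26%, and it was 12.4% of the 11220 tested genes with a promoter. A match of letters is a description and does not show binding. Whether MYC has a part in the lower levels of these genes was not tested.

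The other motifs searched, on both strands, were GGGCGG (GC box), CGGAAG (ETS), TGACGTCA (CRE) and the palindromic NRF1 motif, and none of the 5 strings contains another. GGGCGG was in 24 of 32 promoters (75.0%), against 77.3% of tested genes, and CGGAAG was in 15 (46.9%), against 37.2%. TGACGTCA was in 1 (3.12%), against 3.76%, and the NRF1 motif in 2 (6.25%), against 2.53%. Over all tested genes, 11.2% were lower in CR3 in all 3 comparisons. Of the 15 genes with CACGTG, 11 were, against 10 of the 17 without it. Their median log2 fold changes were close: -0.35 with and -0.35 without CACGTG against reverse, -0.44 and -0.39 against scramble, and -0.24 and -0.21 against mCherry. The difference between genes with and without the motif was not tested.

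Below are 5 promoters that show this spread: the 3 genes with CACGTG whose levels differed most between CR3 and the other groups (FBL, RRP9 and GNL3), NPM1, which differed most among those without it, and NOP10, which differed least among those with it. Capitals mark CACGTG. FBL is chr19:39846330-39846629, RRP9 chr3:51941855-51942154 and NOP10 chr15:34343087-34343386, all on the minus strand, and GNL3 chr3:52685782-52686081 and NPM1 chr5:171387599-171387898 are on the plus strand (RefSeq, GRCh38.p14), each printed 5′ to 3′ in the direction of transcription.
FBL: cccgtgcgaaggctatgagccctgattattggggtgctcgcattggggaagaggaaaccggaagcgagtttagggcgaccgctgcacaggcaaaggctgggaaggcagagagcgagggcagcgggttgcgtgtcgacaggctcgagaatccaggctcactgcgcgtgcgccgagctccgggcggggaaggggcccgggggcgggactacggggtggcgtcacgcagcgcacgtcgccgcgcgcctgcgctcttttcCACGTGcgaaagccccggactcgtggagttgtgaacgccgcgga
RRP9: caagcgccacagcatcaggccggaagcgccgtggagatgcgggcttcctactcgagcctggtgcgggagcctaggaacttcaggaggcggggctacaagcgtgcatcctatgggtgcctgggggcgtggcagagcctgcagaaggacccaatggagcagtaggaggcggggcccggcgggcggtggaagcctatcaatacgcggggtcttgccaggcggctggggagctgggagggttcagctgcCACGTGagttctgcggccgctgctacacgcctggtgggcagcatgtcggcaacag
GNL3: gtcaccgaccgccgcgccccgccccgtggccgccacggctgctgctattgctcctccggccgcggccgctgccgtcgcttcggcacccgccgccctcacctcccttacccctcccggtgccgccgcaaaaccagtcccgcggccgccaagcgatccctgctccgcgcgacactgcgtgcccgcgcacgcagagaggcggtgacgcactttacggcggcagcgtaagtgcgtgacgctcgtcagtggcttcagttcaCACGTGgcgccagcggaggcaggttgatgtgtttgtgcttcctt
NPM1: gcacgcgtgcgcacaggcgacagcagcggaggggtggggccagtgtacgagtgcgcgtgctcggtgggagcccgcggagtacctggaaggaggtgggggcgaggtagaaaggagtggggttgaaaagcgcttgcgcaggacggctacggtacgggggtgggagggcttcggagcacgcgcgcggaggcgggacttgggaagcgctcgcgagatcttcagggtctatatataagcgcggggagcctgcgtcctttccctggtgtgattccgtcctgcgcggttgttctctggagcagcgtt
NOP10: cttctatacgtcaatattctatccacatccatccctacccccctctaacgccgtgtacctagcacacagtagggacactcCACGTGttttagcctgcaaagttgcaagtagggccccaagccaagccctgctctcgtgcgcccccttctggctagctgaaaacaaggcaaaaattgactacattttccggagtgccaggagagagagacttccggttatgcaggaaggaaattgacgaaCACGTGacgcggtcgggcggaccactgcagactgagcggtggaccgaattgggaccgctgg
Relative to the base at the transcription start, the motif's first base lies at 6 in FBL, at -5 in RRP9 and at 6 in GNL3, so all 3 carry it within a few bases of the start. NOP10 carries it at -170 and at -11 and differed least among the genes with CACGTG. Positions in the other genes with CACGTG are not given, and whether position goes with the change was not tested. NPM1 has no CACGTG in this window.

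The list holds 5 nucleolar organizers and chaperones. All 5 were lower in CR3 against reverse, scramble and mCherry, beside 16.7%, 18.6% and 14.5% of all tested genes. Their median log2 fold changes were -0.44, -0.50 and -0.34 in that order. GNL3 (ENSG00000163938, chr3:52681156-52694492, plus strand), which encodes the nucleolar GTPase nucleostemin and whose promoter is printed above, had 2085, 2320.2 and 2130.0 normalized reads in the CR3 libraries, against 3246, 3155 and 2815 in reverse, 3128, 3188 and 3375 in scramble and 2747, 2744 and 3074 in mCherry libraries. Every GNL3 value of the CR3 libraries lay below all 9 values of the other groups. For GNL3 the log2 fold change of CR3 was -0.49 against reverse, -0.57 against scramble and -0.39 against mCherry, each with a standard error of 0.06, and the adjusted p was 8.9e-06 against reverse, 1.55e-06 against scramble and 0.000134 against mCherry. NPM1 (ENSG00000181163, chr5:171387116-171411137, plus strand), which encodes the abundant nucleolar chaperone nucleophosmin, had 13978, 15765 and 14316 normalized reads in the CR3 libraries, against 20815, 21080.2 and 19762 in reverse, 20914, 20884 and 22142 in scramble and 18726, 18972 and 21081 in mCherry libraries. Every NPM1 value of the CR3 libraries lay below all 9 values of the other groups. For NPM1 the log2 fold change of CR3 was -0.49 against reverse, -0.54 against scramble and -0.42 against mCherry, each with a standard error of 0.06, and the adjusted p was 3.46e-06 against reverse, 9.23e-07 against scramble and 2.36e-05 against mCherry. NOLC1 (ENSG00000166197, chr10:102152176-102163871, plus strand), a chaperone of snoRNPs, had the smallest median change of the 5 and had 6698, 6898 and 6728 normalized reads in the CR3 libraries, against 8592, 9049 and 8439 in reverse, 9329, 9048 and 9683 in scramble and 7919.6, 7837 and 8429 in mCherry libraries. Every NOLC1 value of the CR3 libraries lay below all 9 values of the other groups. For NOLC1 the log2 fold change of CR3 was -0.36 against reverse, -0.46 against scramble and -0.25 against mCherry, each with a standard error of 0.04, and the adjusted p was 7.39e-06 against reverse, 3.22e-07 against scramble and 0.000371 against mCherry. NCL, which encodes the RNA-binding protein nucleolin, averaged 19025 ± 748 normalized reads in CR3, 25792 ± 1056 in reverse, 26569 ± 546 in scramble and 24189 ± 1822 in mCherry libraries (SD, n = 3 each). PA2G4, which encodes a ribosome-binding protein linked to proliferation, averaged 4112 ± 18.2 normalized reads in CR3, 5494 ± 324 in reverse, 5828 ± 239 in scramble and 5011 ± 282 in mCherry libraries, and like NCL it was lower in CR3 in all 3 comparisons.

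**Figure D3:**
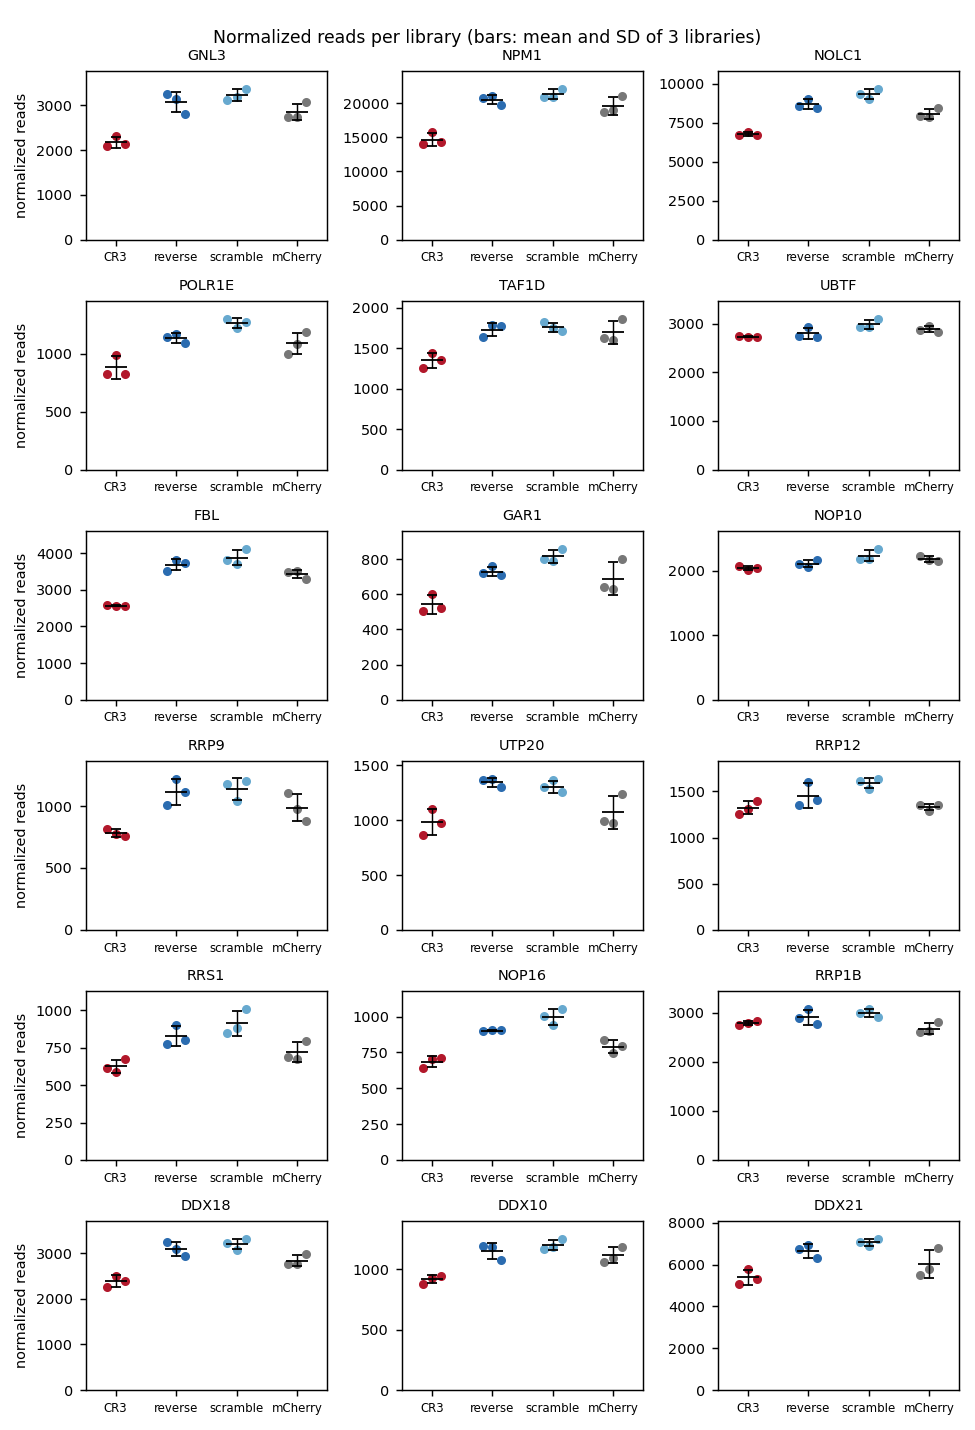
Normalized reads of 18 ribosome biogenesis genes, 3 per role, in each of the 12 libraries; points are single libraries, bars are the mean and SD of 3 libraries, and the axes start at 0. The CR3 points lie below all points of the other groups for GNL3, FBL and RRP9, among others, while those of RRP12 and RRP1B overlap with mCherry.

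RNA polymerase I and its factors were measured by 7 genes. Of these, 5 were lower in CR3 than in reverse, 6 lower than in scramble and 2 lower than in mCherry libraries. The shares of all tested genes were 16.7%, 18.6% and 14.5% in that order, and the median log2 fold changes of the 7 were -0.24, -0.28 and -0.08. POLR1E (ENSG00000137054, chr9:37485935-37503697, plus strand), which encodes a subunit of RNA polymerase I, had 828, 993 and 826 normalized reads in the CR3 libraries, against 1145, 1169 and 1089 in reverse, 1301, 1218 and 1272 in scramble and 1002, 1083 and 1186 in mCherry libraries. Every POLR1E value of the CR3 libraries lay below all 9 values of the other groups. For POLR1E the log2 fold change of CR3 was -0.37 against reverse, -0.52 against scramble and -0.31 against mCherry, each with a standard error of 0.07, and the adjusted p was 0.00102 against reverse, 3.02e-05 against scramble and 0.00485 against mCherry. TAF1D (ENSG00000166012, chr11:93729948-93784391, minus strand), which encodes a subunit of the promoter selectivity factor SL1, had 1263, 1439 and 1351 normalized reads in the CR3 libraries, against 1639, 1785 and 1774 in reverse, 1821, 1749 and 1716 in scramble and 1629, 1604 and 1865 in mCherry libraries. Every TAF1D value of the CR3 libraries lay below all 9 values of the other groups. For TAF1D the log2 fold change of CR3 was -0.36 against reverse, -0.38 against scramble and -0.33 against mCherry, each with a standard error of 0.06, and the adjusted p was 0.000311 against reverse, 0.000145 against scramble and 0.000834 against mCherry. UBTF (ENSG00000108312, chr17:44205033-44221626, minus strand), which encodes the architectural factor that binds ribosomal DNA, had 2742, 2732 and 2721 normalized reads in the CR3 libraries, against 2740.3, 2934 and 2728 in reverse, 2924, 2933 and 3099 in scramble and 2876, 2948 and 2831 in mCherry libraries. The UBTF values of the CR3 libraries lay below all those of scramble and mCherry and overlapped those of reverse. For UBTF the log2 fold change of CR3 was -0.04 against reverse, -0.13 against scramble and -0.08 against mCherry, each with a standard error of 0.04, and the adjusted p was 0.575 against reverse, 0.0293 against scramble and 0.2 against mCherry. Scaling by library totals turned UBTF's log2 fold change to 0.05 against reverse and 0.01 against mCherry, and its call against scramble was lost there (adjusted p = 0.521), with upper-quartile scaling (0.0967), without the filter (0.0591), and without CR3 replicate 1 (0.0674), CR3 replicate 2 (0.0676), CR3 replicate 3 (0.0941) or scramble replicate 3 (0.137). The same call was also lost with the replicate number as a block (adjusted p = 0.05 after rounding).

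The catalytic core subunits and the initiation factor RRN3 complete this set. POLR1A, the largest subunit, averaged 2636 ± 294 normalized reads in CR3, 3178 ± 124 in reverse, 3154 ± 80 in scramble and 2646 ± 298 in mCherry libraries (SD, n = 3 each). POLR1B, the other large catalytic subunit, averaged 1433 ± 90.4 normalized reads in CR3, 1676 ± 26.6 in reverse, 1744 ± 10.1 in scramble and 1494 ± 49.4 in mCherry libraries. POLR1C, which RNA polymerase III also contains, averaged 730.1 ± 13.6 normalized reads in CR3, 863 ± 28.5 in reverse, 944 ± 10.3 in scramble and 793 ± 66.1 in mCherry libraries. These 3 genes were lower in CR3 than in reverse and scramble libraries, and their log2 fold changes against mCherry were -0.01 for POLR1A, -0.06 for POLR1B and -0.12 for POLR1C, none past the threshold (adjusted p = 0.972, 0.405 and 0.187). RRN3, which joins RNA polymerase I to its promoter, averaged 2435 ± 75.5 normalized reads in CR3, 2604 ± 94.4 in reverse, 2669.8 ± 63.2 in scramble and 2531 ± 193 in mCherry libraries and passed the threshold in none of the 3 comparisons, with an adjusted p of 0.177 against reverse, 0.059 against scramble and 0.498 against mCherry.

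Among the 7 snoRNP proteins, 6 were lower in CR3 than in reverse, 7 lower than in scramble and 5 lower than in mCherry libraries. Beside them stand 16.7%, 18.6% and 14.5% of all tested genes. Median log2 fold changes of the 7 were -0.38, -0.47 and -0.27. FBL (ENSG00000105202, chr19:39834458-39846414, minus strand), the methyltransferase of box C/D snoRNPs, moved most of all 39 genes by the median of its 3 fold changes and had 2580.3, 2568 and 2554 normalized reads in the CR3 libraries, against 3513, 3824 and 3718 in reverse, 3822, 3703 and 4113 in scramble and 3473, 3506 and 3298 in mCherry libraries. Every FBL value of the CR3 libraries lay below all 9 values of the other groups. For FBL the log2 fold change of CR3 was -0.52 against reverse, -0.59 against scramble and -0.42 against mCherry, each with a standard error of 0.05, and the adjusted p was 2.61e-07 against reverse, 5.34e-08 against scramble and 4.16e-06 against mCherry. GAR1 (ENSG00000109534, chr4:109815510-109824740, plus strand), a core protein of box H/ACA snoRNPs, had 504, 603 and 521 normalized reads in the CR3 libraries, against 719, 759.7 and 707 in reverse, 802, 786 and 857 in scramble and 639, 629 and 798 in mCherry libraries. Every GAR1 value of the CR3 libraries lay below all 9 values of the other groups. For GAR1 the log2 fold change of CR3 was -0.43 against reverse, -0.59 against scramble and -0.34 against mCherry, each with a standard error of 0.09, and the adjusted p was 0.00121 against reverse, 5.44e-05 against scramble and 0.00806 against mCherry. GAR1's call against mCherry was lost when only the CR3 and mCherry libraries were fitted (adjusted p = 0.0528). NOP10 (ENSG00000182117, chr15:34341713-34343177, minus strand), the smallest core protein of box H/ACA snoRNPs, had 2067, 2012 and 2038 normalized reads in the CR3 libraries, against 2098, 2062 and 2167 in reverse, 2178, 2183 and 2336 in scramble and 2233, 2166 and 2149 in mCherry libraries. The NOP10 values of the CR3 libraries lay below all those of scramble and mCherry and overlapped those of reverse. For NOP10 the log2 fold change of CR3 was -0.05 against reverse, -0.13 against scramble and -0.10 against mCherry, each with a standard error of 0.04, and the adjusted p was 0.435 against reverse, 0.029 against scramble and 0.113 against mCherry. With scaling by library totals NOP10's log2 fold change against reverse was 0.04. Its call against scramble was lost there (adjusted p = 0.507), with upper-quartile scaling (0.0961), without the filter (0.0571), and without CR3 replicate 1 (0.0561), CR3 replicate 2 (0.0917), CR3 replicate 3 (0.0908) or scramble replicate 3 (0.15).

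The remaining snoRNP genes are 2 of box C/D and 2 of box H/ACA particles. NOP56, a core box C/D protein, averaged 3931 ± 184 normalized reads in CR3, 5159 ± 286 in reverse, 5571 ± 26.5 in scramble and 4907 ± 136 in mCherry libraries (SD, n = 3 each). NOP58, its partner in the same particle, averaged 1902 ± 128 normalized reads in CR3, 2310.1 ± 82.1 in reverse, 2432 ± 28.5 in scramble and 2212 ± 268 in mCherry libraries. DKC1, the pseudouridine synthase of box H/ACA snoRNPs, averaged 2099.9 ± 123 normalized reads in CR3, 2737 ± 212 in reverse, 2898 ± 100.3 in scramble and 2537 ± 182 in mCherry libraries. All of these were lower in CR3 in all 3 comparisons. NHP2, another core protein of box H/ACA snoRNPs, averaged 1101 ± 59.5 normalized reads in CR3, 1247 ± 74.6 in reverse, 1353 ± 37.8 in scramble and 1178 ± 28.4 in mCherry libraries and was lower in CR3 than in reverse and scramble but not past the threshold against mCherry (adjusted p = 0.217).

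Small subunit processome and 40S assembly genes were lower in CR3 in 8 of 9 cases against reverse, 9 of 9 against scramble and 5 of 9 against mCherry. In the same order, 16.7%, 18.6% and 14.5% of all tested genes were lower. The 9 genes had median log2 fold changes of -0.36, -0.42 and -0.19. RRP9 (ENSG00000114767, chr3:51933430-51941941, minus strand), a protein specific to the U3 snoRNP, carries CACGTG at its start as printed above and had 818, 775 and 755 normalized reads in the CR3 libraries, against 1009, 1219 and 1115 in reverse, 1179.7, 1040.5 and 1206 in scramble and 1106, 975 and 883 in mCherry libraries. Every RRP9 value of the CR3 libraries lay below all 9 values of the other groups. For RRP9 the log2 fold change of CR3 was -0.51 against reverse, -0.54 against scramble and -0.33 against mCherry, each with a standard error of 0.08, and the adjusted p was 0.000179 against reverse, 7.66e-05 against scramble and 0.00701 against mCherry. UTP20 (ENSG00000120800, chr12:101280109-101386616, plus strand), a large scaffold of the processome, had 868, 1106 and 974 normalized reads in the CR3 libraries, against 1363, 1376 and 1302 in reverse, 1301, 1366 and 1256 in scramble and 998, 976 and 1241 in mCherry libraries. The UTP20 values of the CR3 libraries lay below all those of reverse and scramble and overlapped those of mCherry. For UTP20 the log2 fold change of CR3 was -0.46 against reverse, -0.42 against scramble and -0.12 against mCherry, each with a standard error of 0.09, and the adjusted p was 0.000632 against reverse, 0.00127 against scramble and 0.334 against mCherry. RRP12 (ENSG00000052749, chr10:97356358-97426076, minus strand), which acts in maturation and export of small subunit precursors, had 1257, 1308 and 1397 normalized reads in the CR3 libraries, against 1351, 1605 and 1407 in reverse, 1607, 1530.3 and 1633 in scramble and 1347, 1291 and 1357 in mCherry libraries. The RRP12 values of the CR3 libraries lay below all those of scramble and overlapped those of reverse and mCherry. For RRP12 the log2 fold change of CR3 was -0.14 against reverse, -0.27 against scramble and -0.01 against mCherry, each with a standard error of 0.06, and the adjusted p was 0.105 against reverse, 0.00265 against scramble and 0.901 against mCherry. RRP12's log2 fold change against mCherry turned to 0.08 with scaling by library totals, 0.01 with upper-quartile scaling, 0.02 without CR3 replicate 1 and 0.00 without mCherry replicate 3, and its comparison with reverse passed without reverse replicate 1 (adjusted p = 0.0461).

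NAT10, the acetyltransferase of small subunit rRNA, averaged 1880.0 ± 25.8 normalized reads in CR3, 2386 ± 43 in reverse, 2461 ± 77.9 in scramble and 2139 ± 67 in mCherry libraries (SD, n = 3 each). NOP14, a processome protein, averaged 1703 ± 69.5 normalized reads in CR3, 2107 ± 155 in reverse, 2186 ± 61.9 in scramble and 2023 ± 114 in mCherry libraries. UTP4, of the early-binding UTP-A module, averaged 1834 ± 50.7 normalized reads in CR3, 2348 ± 59.2 in reverse, 2548 ± 82.2 in scramble and 2198 ± 28.4 in mCherry libraries. WDR43, also of UTP-A, averaged 2283 ± 135 normalized reads in CR3, 2995 ± 144 in reverse, 3151 ± 165 in scramble and 2848 ± 329.7 in mCherry libraries, and like NAT10, NOP14 and UTP4 it was lower in CR3 in all 3 comparisons. UTP15, a further UTP-A protein, averaged 631 ± 80.1 normalized reads in CR3, 809 ± 79.6 in reverse, 848 ± 16.8 in scramble and 693 ± 88.5 in mCherry libraries. BYSL, the assembly factor bystin, averaged 799 ± 86.2 normalized reads in CR3, 1016 ± 54.1 in reverse, 1061 ± 42.3 in scramble and 905 ± 61.7 in mCherry libraries. UTP15 and BYSL were lower than in reverse and scramble, and against mCherry their adjusted p was 0.345 for UTP15 and 0.0797 for BYSL.

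Of the 8 measured 60S assembly genes, 7 were lower in CR3 than in reverse, 7 lower than in scramble and 6 lower than in mCherry libraries. The corresponding shares of all tested genes were 16.7%, 18.6% and 14.5%. Median log2 fold changes of the 8 were -0.31, -0.43 and -0.20. RRS1 (ENSG00000179041, chr8:66429028-66430733, plus strand), which brings the 5S ribonucleoprotein to the large subunit precursor, had 614, 590.4 and 673 normalized reads in the CR3 libraries, against 778, 902 and 803 in reverse, 852, 884 and 1009 in scramble and 687, 675 and 796 in mCherry libraries. Every RRS1 value of the CR3 libraries lay below all 9 values of the other groups. For RRS1 the log2 fold change of CR3 was -0.40 against reverse, -0.55 against scramble and -0.20 against mCherry, each with a standard error of 0.08, and the adjusted p was 0.0013 against reverse, 6.82e-05 against scramble and 0.089 against mCherry. NOP16 (ENSG00000048162, chr5:176383938-176388975, minus strand), a nucleolar assembly factor, had 641, 701 and 713 normalized reads in the CR3 libraries, against 897, 904 and 905 in reverse, 1007, 941 and 1052 in scramble and 834, 748 and 792 in mCherry libraries. Every NOP16 value of the CR3 libraries lay below all 9 values of the other groups. For NOP16 the log2 fold change of CR3 was -0.40 against reverse, -0.55 against scramble and -0.21 against mCherry, each with a standard error of 0.06, and the adjusted p was 0.000112 against reverse, 3.15e-06 against scramble and 0.0206 against mCherry. NOP16's call against mCherry was lost with scaling by library totals (adjusted p = 0.171), with only the CR3 and mCherry libraries (0.0737), without CR3 replicate 1 (0.109) and without mCherry replicate 1 (0.0921). RRP1B (ENSG00000160208, chr21:43659548-43696079, plus strand), a nucleolar protein of large subunit precursors, was the 1 gene with a positive value against mCherry and had 2756, 2796 and 2834 normalized reads in the CR3 libraries, against 2884, 3069.6 and 2771 in reverse, 2985, 3071 and 2913 in scramble and 2596, 2619 and 2804 in mCherry libraries. The RRP1B values of the CR3 libraries lay below all those of scramble and overlapped those of reverse and mCherry. For RRP1B the log2 fold change of CR3 was -0.06 against reverse, -0.10 against scramble and 0.07 against mCherry, each with a standard error of 0.05, and the adjusted p was 0.397 against reverse, 0.123 against scramble and 0.34 against mCherry. With scaling by library totals RRP1B was higher in CR3 than in mCherry, at a log2 fold change of 0.15 (adjusted p = 0.0222), and its value against reverse turned to 0.03.

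PES1 and WDR12, partners of BOP1 in one complex, were both lower in CR3 in all 3 comparisons. PES1 averaged 2293 ± 68.1 normalized reads in CR3, 2834 ± 111 in reverse, 3104 ± 142 in scramble and 2641 ± 215 in mCherry libraries (SD, n = 3 each). WDR12 averaged 1309 ± 101 normalized reads in CR3, 1597 ± 74.6 in reverse, 1583 ± 23.3 in scramble and 1461 ± 22.3 in mCherry libraries. NOP2, a methyltransferase of large subunit rRNA, averaged 1839 ± 80.7 normalized reads in CR3, 2283 ± 131 in reverse, 2505 ± 134 in scramble and 2174 ± 52.3 in mCherry libraries. NOC2L, which forms a complex with NOC3L on large subunit precursors in yeast, averaged 4001 ± 141 normalized reads in CR3, 5098 ± 344 in reverse, 5391 ± 137 in scramble and 4703 ± 261 in mCherry libraries, and it too was lower in all 3 comparisons, as NOP2 was. NOC3L averaged 1214 ± 75.3 normalized reads in CR3, 1409 ± 128 in reverse, 1500.3 ± 43.2 in scramble and 1411 ± 132 in mCherry libraries and was also lower in all 3.

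All 3 DEAD-box RNA helicases were lower in CR3 than in reverse and scramble libraries, and 2 of them were lower than in mCherry. Against reverse, scramble and mCherry, 16.7%, 18.6% and 14.5% of all tested genes were lower. The helicases had median log2 fold changes of -0.33, -0.39 and -0.25 in that order. DDX18 (ENSG00000088205, chr2:117814650-117832379, plus strand), a helicase of large subunit assembly, had 2249, 2508 and 2394 normalized reads in the CR3 libraries, against 3242, 3091 and 2945 in reverse, 3223, 3075 and 3305 in scramble and 2765, 2754 and 2971 in mCherry libraries. Every DDX18 value of the CR3 libraries lay below all 9 values of the other groups. For DDX18 the log2 fold change of CR3 was -0.38 against reverse, -0.43 against scramble and -0.25 against mCherry, each with a standard error of 0.05, and the adjusted p was 3.17e-05 against reverse, 6.89e-06 against scramble and 0.00185 against mCherry. DDX10 (ENSG00000178105, chr11:108665025-108940930, plus strand), a nucleolar helicase of pre-rRNA processing, had 880.0, 926 and 946 normalized reads in the CR3 libraries, against 1194, 1189 and 1076 in reverse, 1172, 1187 and 1250.1 in scramble and 1064, 1096 and 1189.5 in mCherry libraries. Every DDX10 value of the CR3 libraries lay below all 9 values of the other groups. For DDX10 the log2 fold change of CR3 was -0.33 against reverse, -0.39 against scramble and -0.28 against mCherry, each with a standard error of 0.06, and the adjusted p was 0.000417 against reverse, 6.74e-05 against scramble and 0.00183 against mCherry. DDX21 (ENSG00000165732, chr10:68956128-68985073, plus strand), which acts in both RNA polymerase I transcription and rRNA processing, had 5068, 5784 and 5312 normalized reads in the CR3 libraries, against 6727, 6957 and 6296 in reverse, 7109.7, 6879 and 7218 in scramble and 5495, 5780.3 and 6787 in mCherry libraries. The DDX21 values of the CR3 libraries lay below all those of reverse and scramble and overlapped those of mCherry. For DDX21 the log2 fold change of CR3 was -0.31 against reverse, -0.39 against scramble and -0.16 against mCherry, each with a standard error of 0.07, and the adjusted p was 0.00202 against reverse, 0.000205 against scramble and 0.0972 against mCherry. Its comparison with mCherry passed the threshold without CR3 replicate 2 (adjusted p = 0.0307) or without mCherry replicate 1 (adjusted p = 0.0295).

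All 39 genes had a log2 fold change above 0 in scramble against mCherry libraries, and part of the list passed the threshold. At an unadjusted limma p under 0.05 there were 30, against 14.6% of all tested genes. Of the 39 genes, 8 were higher in scramble, where 0.801% of all tested genes were called higher, and none was lower, where 0.807% were (limma, Benjamini-Hochberg adjusted p under 0.05). They were NOP16, NOLC1, NAT10, POLR1B, UTP4, PES1, RRS1 and PA2G4. The 3 scramble values lay above the 3 mCherry values for 26 of the 39 genes, against 9.93% of all tested genes, and the median log2 fold change was 0.20, with single genes between 0.03 and 0.35. RRS1 moved most, by 0.35 (adjusted p = 0.0479), followed by NOP16 with 0.34 (adjusted p = 0.00952), and their values in each library are given above. RRS1's call was lost without mCherry replicate 1 (adjusted p = 0.178), mCherry replicate 2 (0.211), scramble replicate 1 (0.0755), scramble replicate 2 (0.107), scramble replicate 3 (0.272), reverse replicate 1 (0.0565) or reverse replicate 3 (0.0606). It was also lost with decimal places restored without group labels (0.0857), without the filter (0.0651), with a pseudocount of 0.5 (0.0509), with upper-quartile scaling (0.0526) and with only the scramble and mCherry libraries (0.196). NOP16's call was lost with only those libraries (adjusted p = 0.108), and without mCherry replicate 2 (adjusted p = 0.0813), scramble replicate 1 (0.0576) or scramble replicate 3 (0.0899). The count of 8 moved with single libraries. It was 15 without CR3 replicate 1, 13 without CR3 replicate 2, 5 without CR3 replicate 3, 3 without mCherry replicate 1, 1 without mCherry replicate 2, 20 without mCherry replicate 3, 1 without scramble replicate 1, 2 without scramble replicate 2 and 0 without scramble replicate 3, and 0 when only the scramble and mCherry libraries were fitted.

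Reverse libraries did not differ from mCherry past the threshold for any of the 39 genes by limma, where 0.678% of all tested genes were called either way, and voom weights also gave 0. At an unadjusted p under 0.05 there were 17 of the 39, against 9.62% of all tested genes. The median log2 fold change was 0.11, with genes between -0.05 and 0.34, and the 3 reverse values lay above the 3 mCherry values for 10 genes, against 5.81% of all tested genes. Without CR3 replicate 1 or without mCherry replicate 3, 2 genes passed, and 1 passed without CR3 replicate 2. Between reverse and scramble, limma and voom weights both called 0 genes, where 0.491% of all tested genes were called either way, and 7 genes had an unadjusted p under 0.05, against 7.25% of all tested genes. The median log2 fold change of reverse over scramble was -0.07, and the 3 reverse values lay below the 3 scramble values for 11 genes, against 7.72% of all tested genes. These 3 comparisons share libraries with each other and with those of CR3. By its share of all reads the list stood lowest in CR3, then mCherry, then reverse, and highest in scramble, and no gene differed past the threshold between reverse and either of its neighbours in that order.

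Wider lists of the same pathway, also chosen with earlier results of these data known, put these genes in context. Ribosome biogenesis genes outside the list numbered 141, of which 137 were tested, and 75 were lower and 1 higher in CR3 than in reverse, 99 lower and 0 higher than in scramble, and 46 lower and 2 higher than in mCherry. Of these, 45 were lower in all 3 comparisons, where 11.2% of all tested genes were. The shares of all tested genes called lower were 16.7% against reverse, 18.6% against scramble and 14.5% against mCherry. Those called higher were 16.9%, 19.1% and 14.0% in that order. The median log2 fold changes of the 137 genes were -0.21 against reverse, -0.27 against scramble and -0.13 against mCherry. By the median of the 3 fold changes, POP1, a protein of the RNase MRP and RNase P enzymes, moved most, with -0.49 against reverse, -0.63 against scramble and -0.33 against mCherry (adjusted p = 2.63e-05, 1.26e-06 and 0.00121). BRIX1, a large subunit assembly factor, had -0.45 against reverse, -0.56 against scramble and -0.42 against mCherry (adjusted p = 0.000287, 2.67e-05 and 0.000611). NVL, an ATPase of large subunit assembly, was higher in CR3 in 2 comparisons. Its log2 fold change was 0.23 against reverse (adjusted p = 0.0112) and 0.29 against mCherry (adjusted p = 0.00323). Against scramble NVL had 0.11 and was not called (adjusted p = 0.211). SENP3, a protease that removes SUMO in the nucleolus, was higher in CR3 than in mCherry only, with 0.25 (adjusted p = 0.0348). SENP3 had 0.11 against reverse (adjusted p = 0.33) and -0.02 against scramble (adjusted p = 0.865). POP1, BRIX1, NVL and SENP3 were chosen for mention after their values were seen.

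Splitting these genes by machinery gave the following counts, in each case without the 40 listed genes. For RNA polymerase I and its factors, 6 of 14 were lower in CR3 than in reverse, 9 than in scramble and 4 than in mCherry. For snoRNP proteins and their assembly factors, the counts were 7, 6 and 3 of 11 in that order. For the small subunit processome and 40S assembly they were 27, 36 and 15 of 45. For 60S assembly they were 23, 35 and 15 of 44, and for the nuclear RNA exosome and RNase MRP they were 12, 13 and 9 of 23. Each machinery thus held genes both past and not past the threshold, and in each the count against mCherry was the smallest. Over all tested genes, the share lower was 16.7% against reverse, 18.6% against scramble and 14.5% against mCherry.

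Neighbouring machineries were counted in the same way. RNA polymerase III makes the 5S ribosomal RNA and transfer RNAs. Of 22 of its genes, 6 were lower and 2 higher in CR3 than in reverse, 10 lower and 0 higher than in scramble, and 3 lower and 1 higher than in mCherry, with median log2 fold changes of -0.05, -0.12 and 0.01. Of all tested genes, 16.7% were lower against reverse, 18.6% against scramble and 14.5% against mCherry. The share of the 22 was thus near that of all tested genes against mCherry only, and above it against reverse and scramble. Subunits shared with RNA polymerase I, such as POLR1C, were counted with RNA polymerase I and are not among the 22. Cytosolic ribosomal proteins were measured by 57 genes, and 50 were lower in CR3 than in reverse, 53 than in scramble and 51 than in mCherry, with medians of -0.30, -0.33 and -0.31. Between scramble and mCherry, the same ribosomal protein genes had a median of 0.02 with none called, beside 0.20 and 8 called for the 39 biogenesis genes. The difference between these lists was not tested.

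**Figure D4:**
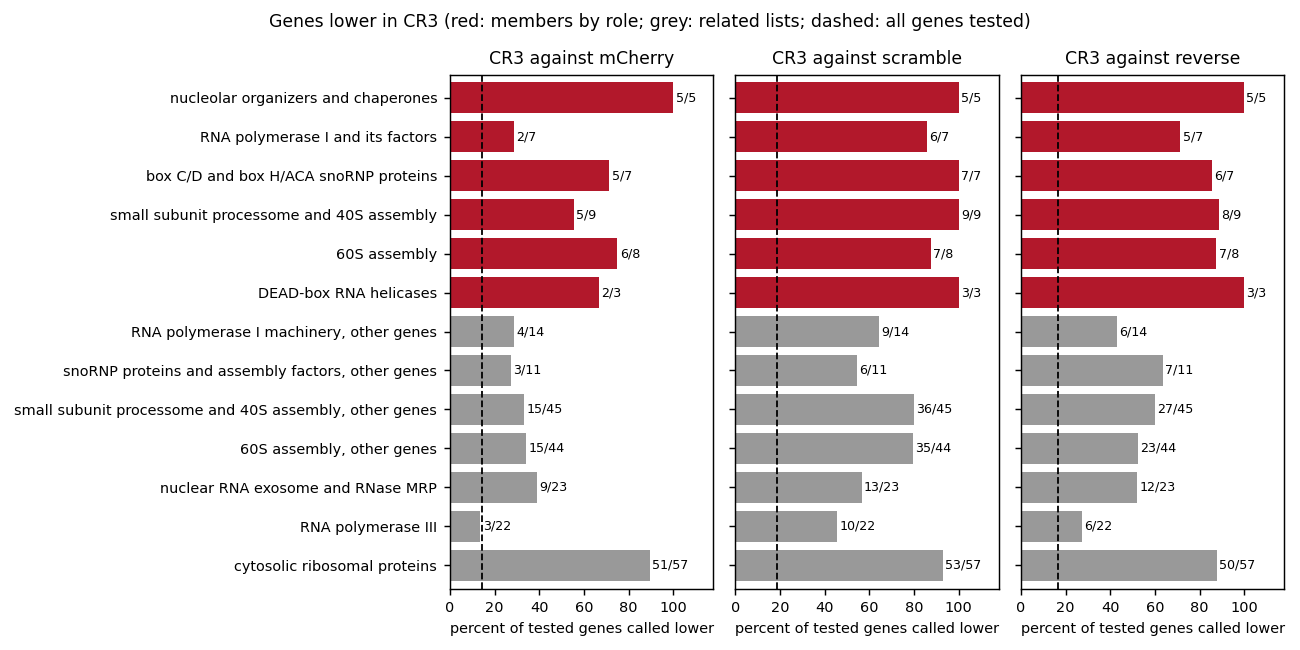
Percent of genes called lower in CR3 (limma adjusted p under 0.05) against reverse, scramble and mCherry, for the ribosome biogenesis genes by role and for the wider lists; numbers give genes called over genes tested, and dashed lines give the share over all tested genes. Nucleolar organizers reach 5 of 5 in each comparison. RNA polymerase III reaches 6 of 22 against reverse, 10 of 22 against scramble and 3 of 22 against mCherry.

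Genome context limits some of these values. In the annotation of GENCODE release 29, 7 of the 39 genes hold snoRNA genes inside them, 31 snoRNAs in all: NCL, NOP56, NOP58, DKC1, TAF1D, WDR43 and GNL3. All 7 were lower in CR3 in all 3 comparisons, against 18 of the other 32 genes and 11.2% of all tested genes. Median log2 fold changes were -0.39 in these 7 genes and -0.34 in the other 32 against reverse, -0.47 and -0.42 against scramble, and -0.32 and -0.20 against mCherry; the difference was not tested. Exons of 14 genes, among them NOP16, UBTF, TAF1D, RRP12 and GNL3, overlap exons of a gene on the opposite strand, and those of 5 overlap a gene on the same strand. The library kit keeps strand, but no label gives the strand setting of the counting, so reads of overlapping genes may not be separated. For 10 genes, named pseudogene copies exist, 45 of them for NPM1, and how reads shared with them were counted is not given either, so the levels of these genes are uncertain to that extent.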

How the data were processed

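Polyadenylated RNA from 12 HCT116 libraries was sequenced from stranded libraries, per the labels' protocols. Per the submitters' processing notes the tools included STAR and featureCounts with build GRCh38; no label or header gives the annotation release or strand setting. The deposited table holds read counts that the authors divided by a size factor per library (normalized reads), and values of 1 or more had lost their decimal mark. The mark was restored by reading every value as a whole multiple of what 1 read is worth in its library: 100.0% of 265152 non-zero values came out whole within 1e-07. The power of 10 was chosen per gene by likelihood with the group labels in view; 1913 values (0.721%) remained ambiguous, none of them in the genes reported, and of 18138 values that kept their mark 97.98% were read correctly when it was hidden. Library totals were 17418173 to 23548480 reads.

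Genes with at least 10 reads in at least 3 libraries were kept (16174), and 691 with an ambiguous value were left out. The log2 of normalized reads plus a pseudocount of 1 was fitted with limma 3.58.1 (R 4.3.3) with a mean-variance trend, 4 groups and 12 libraries sharing 1 estimate of spread. Two-sided p-values were adjusted by Benjamini-Hochberg over all 15483 genes within each of 6 comparisons, and called under 0.05. Fold changes are on the log2(value + 1) scale. The fit was also run on simulated data with far fewer changed genes than were called here, so that run does not bear on the scaling of these libraries. Symbols matched 52526 of 63677 identifiers through GENCODE release 29. Replicate numbers showed no pairing of libraries by correlation, which cannot exclude one, and were not used in the main fit. Tables and figures used Python 3.11.15 with pandas 2.3.3 and matplotlib 3.10.9.

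In each role, the 2 genes with the most negative and the 1 with the most positive median of the 3 log2 fold changes of CR3 are given in full, as are the 2 called genes with the largest change in each comparison without CR3. The genes and lists were chosen with earlier results of these data known. In all, 23 alternatives were run; ZNHIT3, DDX52 and AATF and 1 embryonic kidney marker matched no identifier and are not analysed here. The call of 1 marker gene is not reported here.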

Additional observations from a re-analysis of the deposited data

How the results depend on the processing

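Counts of ribosome biogenesis genes lower in CR3 stayed within 1.5 times under each of the 23 alternatives. Leaving out each library in turn gave 31 to 34 against reverse, 34 to 38 against scramble, 21 to 26 against mCherry and 21 to 26 in all 3. The count higher in scramble than in mCherry (8) was 5 when decimal places were restored without group labels, 4 without the filter, 0 with only the groups compared and 3 with the replicate block, and 0 to 20 when 1 library was left out; the cause was not tested. The count higher in reverse than in mCherry (0) was 0 to 2, and that between reverse and scramble 0 to 0. Of 1288 values for single named genes, 1240 kept their direction and side of the threshold, 36 lost a call, 4 gained one and 8 changed sign. With library totals the log2 fold change became 0.0101 for UBTF and 0.0752 for RRP12 against mCherry, and 0.05237 for UBTF, 0.03925 for NOP10 and 0.03171 for RRP1B against reverse. RRP12 against mCherry also became 0.01253 with upper-quartile scaling and, with 1 library left out, lay between -0.05473 and 0.02148, above 0 without CR3 replicate 1 (0.02148) or mCherry replicate 3 (0.0001109). Same-numbered libraries did not deviate together (18 pairs, correlations -0.123 to 0.0589, 0 of them over 0.1), so the number is no pairing; with it as a block, 23 genes were lower than mCherry, 36 than scramble and 33 than reverse, and UBTF's call against scramble was lost (adjusted p = 0.05 after rounding). A library correlated best with its own number in 6 of 36 cases. The lowest count of any measured gene was 490 reads, in GAR1, and 3 libraries per group are too few to test for an outlying one.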
